A study of Caenorhabditis elegans with 3 samples.

Results

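The 270 nuclear tRNA genes on chromosomes II, III, IV and V of Caenorhabditis elegans are described here by whether they carried the tagged protein Y5F2A.4, a protein annotated with a C2H2-type zinc finger domain. They are every gene of biotype tRNA on these autosomes in the WBcel235 annotation, pseudogenes left out, among 612 nuclear tRNA genes and 46890 nuclear genes of every biotype. Chromosome II held 57 of them, III held 64, IV held 71 and V held 78, while 276 nuclear tRNA genes lay on X and 66 on I. The choice used annotation alone and no measured value. All 270 have identical coordinates in RefSeq, which gave 21 isotypes and no isotype for 1 gene. Gene bodies were 68 to 122 bp long, with a median of 72 bp.

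Chromatin immunoprecipitation with sequencing was done on 1 group of worms. They were whole, mixed-sex L4 larvae aged 48 hours, synchronised by bleaching and L1 starvation, of strain OP682. This strain carries the mutation unc-119(tm4063) and the integrated transgene wgIs682, in which Y5F2A.4 is fused to the tags TY1, EGFP and 3xFLAG, beside unc-119(+), which rescues the mutation. Chromatin was sonicated to 200 to 800 bp and precipitated with anti-GFP antibody. The 3 libraries came from 2 biological replicates, replicate 1 with 2 technical libraries tied to a single alignment. There was 1 strain with 1 integrated transgene and no second group, so no contrast between conditions and no test across samples was possible. A whole-worm signal does not show in which cells a gene was occupied.

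A tRNA is the adaptor that carries an amino acid to the ribosome, and its isotype is that amino acid. RNA polymerase III transcribes tRNA genes from promoter elements inside the gene, the A box and the B box. These elements are bound by the factor TFIIIC, which places TFIIIB just upstream of the start, and transcription ends at a run of T after the gene. The worm genome holds many tRNA genes with identical sequence, scattered singly, in small groups and inside introns of other genes.

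A gene is called bound when the summit of a reproducible peak lay within 200 bp of its body. Of the 270 genes, 85 were bound, or 31.5% (95% Clopper-Pearson interval 26.0 to 37.4), while 185 were not. The share over all 36664 genes on the same chromosomes was 1.63%. Over consecutive windows of 72 bp tiled along these chromosomes it was 0.261%. On the same chromosomes, 44 of 239 snoRNA genes were bound (18.4%), 15 of 110 snRNA genes (13.6%), 307 of 14364 protein-coding genes (2.14%) and 3 of 154 miRNA genes (1.95%). On X, 97 of 276 tRNA genes were bound, or 35.1% (interval 29.5 to 41.1), and on I 24 of 66, or 36.4% (24.9 to 49.1). Both intervals overlap that of the 270 genes. Intervals throughout cover the counting of genes only, and genes under 1 peak or with 1 sequence are not independent, so no difference between classes was tested.

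The 85 bound genes lay under 74 peaks, which made up 11.9% of the 620 nuclear reproducible peaks. At 63 peaks a single gene was near the summit and at 11 peaks there were 2. No bound gene had more than 1 summit. The peaks carry the authors' signal value, a score with no stated unit that can be compared only within 1 list. It ran over the bound genes between 102 and 227, with a median of 129. Peaks at the 270 genes had a median of 127, against 139 at the 85 peaks near X tRNA genes and 132 at all other nuclear peaks. The 270 genes held 2 of the 100 strongest nuclear peaks, 19 of the 200 strongest and 32 of the 310 strongest. In successive blocks of 124 peaks of the nuclear list, from strongest to weakest, peaks at these genes numbered 6, 19, 14, 25 and 10. They were thus spread over the whole list and fewest in its strongest block.

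Binding was found on all of these chromosomes. Chromosome II had 19 of 57 genes bound (33.3%, interval 21.4 to 47.1), III had 23 of 64 (35.9%, 24.3 to 48.9) and IV had 25 of 71 (35.2%, 24.2 to 47.5). Chromosome V had 18 of 78 (23.1%, 14.3 to 34.0), the lowest of the 4, with an interval that overlaps the others. Median signal at bound genes was 145 on II, 128 on III, 119 on IV and 136 on V, which is not the order of the shares. In the central part of the chromosomes, cut into 3 equal lengths, 28 of 82 genes were bound (34.1%), and in the outer parts 57 of 188 (30.3%).

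The strongest peak lay at F44A2.t1, an alanine tRNA gene on V. This gene lies outside any protein-coding gene, with its 5' end 109 bp from that of protein-coding kvs-3. Its signal was 227, rank 63 of the nuclear list, and its summit was 12 bp inside the gene. It had a signal of 131 in replicate 1, rank 35, and 101 in replicate 2, rank 125. The strongest on II was F10C1.t1, a glycine tRNA gene with a signal of 207, and the summit there was 153 bp from the 5' end, beyond the 3' end of the gene. The 5' end of F10C1.t1 was 238 bp from that of protein-coding K05F1.6. On IV the strongest was Y7A9D.t2, also an alanine gene, with 180 and a summit 19 bp upstream of its 5' end. F44A2.t1 and F10C1.t1 have no identical copy in the nuclear genome, while Y7A9D.t2 is 1 of 17 identical copies. Their sequences are shown because they head the list on their chromosomes, with the A box (TNGNNNAG) and the B box (GTTCNANNC) in capitals. All sequences are WBcel235, 5' to 3' on the strand of the gene.
F44A2.t1, chrV:9318202-9318273, plus strand: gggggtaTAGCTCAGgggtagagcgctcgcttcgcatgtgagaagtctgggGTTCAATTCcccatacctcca
F10C1.t1, chrII:5782212-5782282, minus strand: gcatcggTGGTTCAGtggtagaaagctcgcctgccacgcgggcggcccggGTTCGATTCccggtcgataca
Y7A9D.t2, chrIV:16389211-16389282, minus strand: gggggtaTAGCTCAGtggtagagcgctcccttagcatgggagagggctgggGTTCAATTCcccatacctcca
The A box starts at base 8 in each, and the B box at base 51 or 52. Counted from the 5' end, F44A2.t1 differs from Y7A9D.t2 at 6 of 72 bases, T16G, C29G, A33C, G39T, G44A and G46T, none of them in either box.

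The next genes on each chromosome were of many isotypes. On II they were the isoleucine genes F33G12.t1 (signal 194) and T21B4.t1 (188), T21B4.t1 lying in an intron of the collagen gene col-85, and the lysine gene W09G10.t2 with its threonine neighbour W09G10.t3 (165), which share a peak whose summit is closer to W09G10.t3. On III the 4 strongest were F52C9.t1 for threonine (192), F56F3.t1 for arginine (183), T15B12.t1 for methionine (174) and K04C2.t1 for glycine (149), whose peak is shared with K04C2.t2 and closer to it. On IV, Y7A9D.t2 was followed by B0350.t1 for lysine (178), Y69A2AR.t2 for glutamate (168) and Y65A5A.t2 for alanine (164). On V, F44A2.t1 was followed by T23F1.t1 and T23F1.t2, for lysine and proline, which share a peak of 196, and by Y39B6A.t9 for phenylalanine (163). The signal spanned 149 to 227 among these leaders of the 4 chromosomes, against 102 to 227 over all bound genes.

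At the edge of the list the values ran on without a gap. The weakest bound genes were K07C10.t1 (102), F22B7.t3 (103), Y104H12A.t1 (103) and Y37A1B.t1 (105). The strongest genes that were not bound, by their candidate region in the combined list, were Y49E10.t1 (99.2), Y39A1A.t1 (98.4), rte-4 (98.2) and Y110A2AL.t1 (97.6). Genes on either side of the threshold thus differed by a few units of signal.

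Candidate regions, which hold peaks together with background, give values for many of the genes below the threshold. Candidate summits lay within 200 bp in both replicates for 177 of the 270 genes, or 65.6%. Among tiled windows this share was 4.01%. The 177 comprised all 85 bound genes, whose peaks come from a list made from these candidates, and 92 of the 185 others (49.7%). A further 32 genes had a candidate in replicate 1 only, 20 in replicate 2 only and 41 in neither. The 92 were thus seen in both replicates below the threshold, and how many of them reflect background is not known.

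The median signal of the bound genes was 62.2 in replicate 1 and 71.3 in replicate 2. The other genes with a candidate had medians of 31.1 in replicate 1 and 35.6 in replicate 2. Over every nuclear candidate the median was 20.3 in replicate 1 and 27.1 in replicate 2, so the unbound genes with a candidate also had medians above those of their lists. Ranks only order the same signal values, and the classes came from a threshold on these lists, so neither measure is independent of the call. Bound genes had a median rank of 322 among 29984 nuclear candidates of replicate 1, and of 374 among 23398 of replicate 2. Unbound genes with a candidate had median ranks of 3744 in replicate 1 and 4336 in replicate 2.

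**Figure D1:**
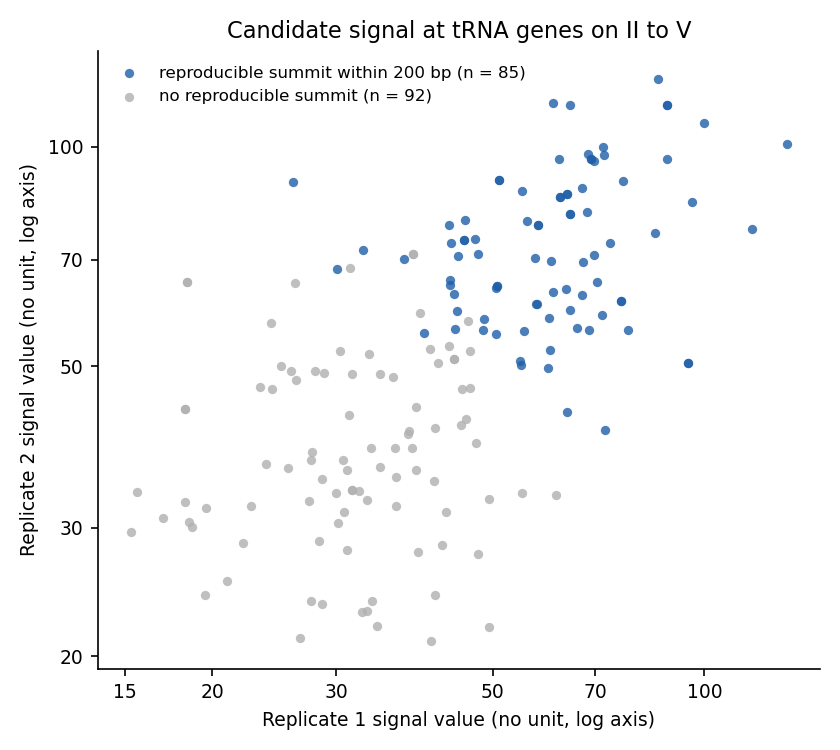
Signal value in replicate 1 (x axis) against replicate 2 (y axis), both without unit on log axes, for the 177 tRNA genes on II to V with a candidate summit within 200 bp in both replicates; each point is a gene, blue for the 85 bound genes and grey for the 92 others. Blue points fill the upper right and grey points the lower left, with a shared border zone; genes that share a candidate fall on 1 point.

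Across the 177 genes, Spearman's rho between the replicate signals was 0.649, and Pearson's r between their log2 values was 0.624. This is a description across genes that share libraries and, at some loci, a peak. Within the 85 bound genes rho was 0.26 and within the 92 others 0.102, so the relation was weaker within each class, and the classes were themselves made by a threshold on these lists. The 4 bound genes with the largest ratio of replicate ranks were these. Y116F11A.t1, an asparagine gene, had a signal of 26.0 and rank 7180 in replicate 1, against 89.6 and rank 195 in replicate 2. T25E4.t1, a valine gene, had 72.3 and rank 193 in replicate 1, against 40.9 and rank 2433 in replicate 2. C52E12.t2 and C52E12.t3 share a peak that ranked 100 in replicate 1 and 1070 in replicate 2.

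When the 620 strongest nuclear candidates of 1 replicate replaced the reproducible list, replicate 2 gave 73 bound genes and replicate 1 gave 65. Of the 73 genes, 65 were among the 85 bound genes (76.5% of those), and of the 65 genes, 63 were (74.1%). The genes in both single-replicate lists numbered 49, all of them bound. The reproducible list was made from these same candidates, so these overlaps are not independent of the call.

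Summits sat on or just beside the genes. Per peak, measured along the gene from the nearest 5' end of a tRNA gene on II to V, the median summit position was 14 bp into the gene (95% interval of the median 3 to 37). Measured from the gene whose body was closest, which differs at some shared peaks, it was 23.5 bp (6 to 38). The summit fell inside the gene at 37 of 74 peaks (50%), upstream at 28 (37.8%) and downstream at 9 (12.2%). At 69 peaks (93.2%) it was within 50 bp of a gene body. The fragments of 200 to 800 bp are longer than the genes, so a position inside the gene is not resolved to 1 box.

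**Figure D2:**
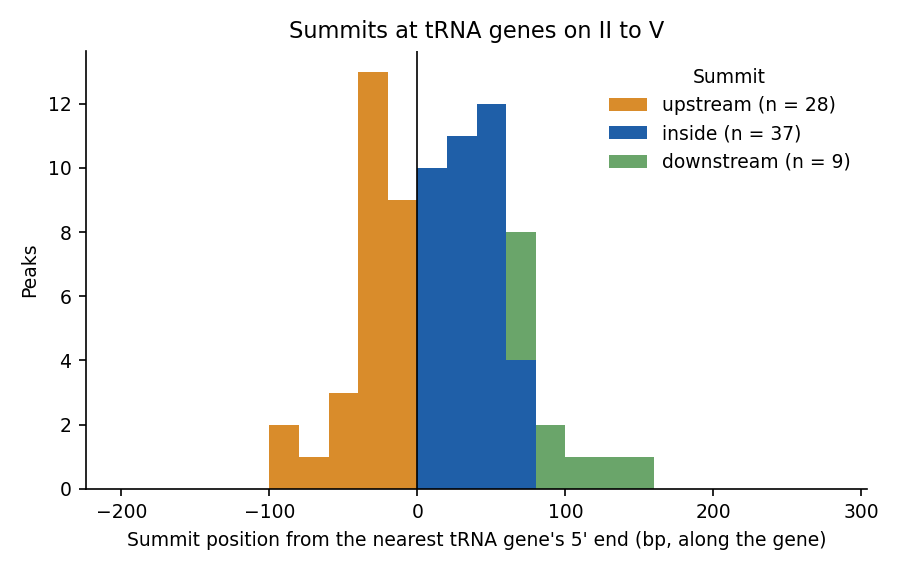
Histogram of summit positions in bp along the gene from the 5' end of the nearest tRNA gene (black line), in bins of 20 bp, for the 74 peaks at tRNA genes on II to V; colours give summits upstream (28), inside (37) and downstream (9) of the gene. Most summits gather around the 5' end and the gene body, and the longest tail runs downstream.

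The B box and the following run of T were present in nearly all 270 genes, and the A box letters in most, in bound and unbound genes alike. The B box letters GTTCNANNC were found on the gene strand in 259 genes (95.9%), against 2.41% of tiled windows of 72 bp searched on either strand. The looser A box letters TNGNNNAG began within the first 25 bases of 228 genes (84.4%), and lay anywhere, on either strand, in 229 (84.8%) against 32.4% of windows. A run of TTTT was found within 30 bases after 268 genes (99.3%), against 30% in the 30 bases before the gene. The motifs do not overlap one another as searched in the shown genes. With a B box 82 of 259 genes were bound (31.7%), and without one 3 of 11 (27.3%). With an A box 74 of 228 were bound (32.5%), and without one 11 of 42 (26.2%). Candidates in both replicates differed more, at 174 of 259 genes with a B box (67.2%) and 3 of 11 without (27.3%). For the A box they were found at 155 of 228 genes with it (68.0%) and 22 of 42 without (52.4%). These differences were not tested. The share of A and T in the 50 bases upstream had a median of 56% in both bound and unbound genes.

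The 3 bound genes whose bodies hold no match to the B box letters were the methionine genes T15B12.t1 (signal 174) and Y22D7AL.t3 (137) and the glutamate gene Y69A2AR.t2 (168). Both methionine genes have the same body. Y22D7AL.t3 shares its peak with the glutamate gene Y22D7AL.t4, which has a B box. The summit lay between them, 22 bp from Y22D7AL.t3 and 27 bp from Y22D7AL.t4. A missing match says only that these letters are not in that gene. Y69A2AR.t2 lies in a UTR exon of mdf-2, a spindle checkpoint gene, on the same strand. It had a signal of 72.0 in replicate 1 and 97.6 in replicate 2, and its summit was 39 bp into the gene. It is shown as a strongly bound gene without the letters, its A box in capitals.
Y69A2AR.t2, chrIV:2639809-2639880, minus strand: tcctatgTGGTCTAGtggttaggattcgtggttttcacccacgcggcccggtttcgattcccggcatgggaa

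The 170 annotated tRNA pseudogenes on II to V, copies held to be decayed, had much of the same sequence. A B box was found in 145 (85.3%), an A box in 149 (87.6%) and a following TTTT in 164 (96.5%). All 3 were present in 219 of the 270 genes, of which 70 were bound (32.0%, interval 25.8 to 38.6), and in 123 pseudogenes, of which 3 were bound (2.44%, 0.506 to 6.96). Over every pseudogene 5 of 170 were bound (2.94%, 0.962 to 6.73), and 25 had a candidate in both replicates (14.7%, against 65.6% of the 270 genes). The intervals of genes and pseudogenes do not overlap. The bound pseudogenes were D1046.t1 (signal 204), Y69A2AR.t3 (155), F19H8.t1 (146), K10B2.t1 (123) and Y69A2AR.t1 (123), all more than 400 bp from any tRNA gene. They were chosen for naming after their values were seen.

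**Figure D3:**
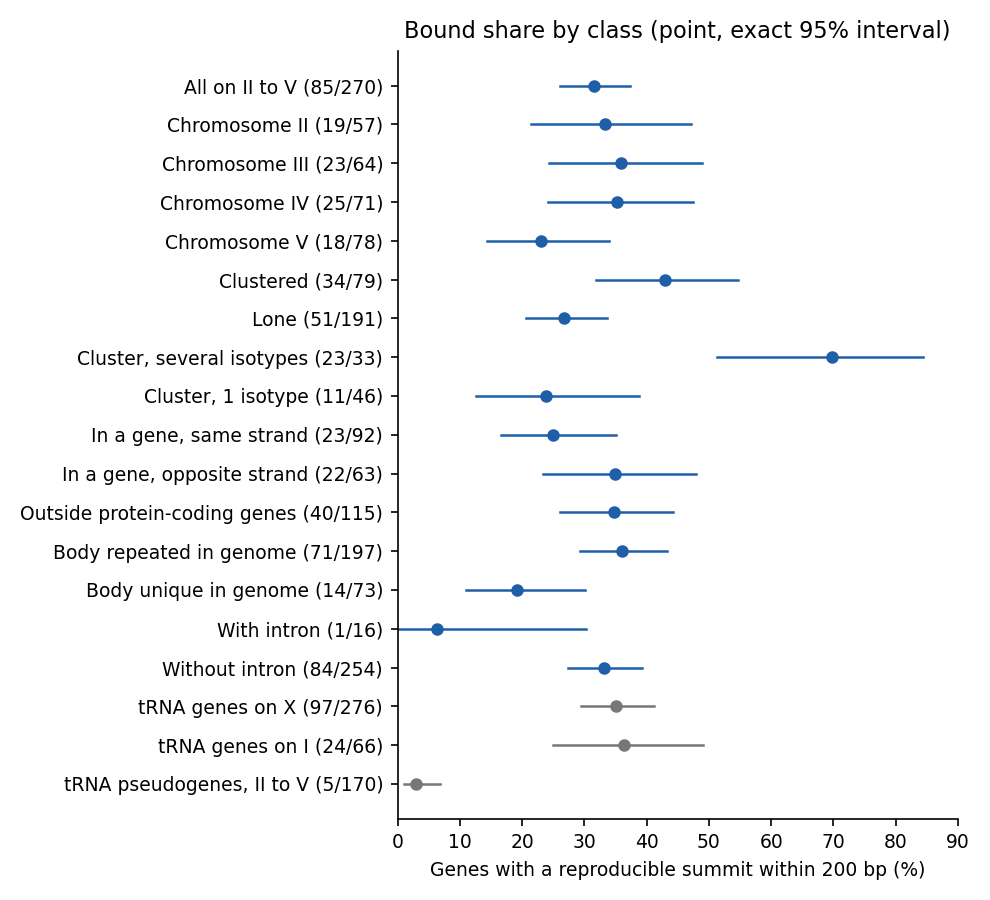
Percentage of genes bound (points) with exact 95% intervals (lines) for classes of tRNA genes on II to V (blue) and, below them in grey, tRNA genes on X and I and tRNA pseudogenes on II to V; counts are bound genes over all genes of the class. The pseudogenes and the genes with an intron lie lowest, and clusters of several isotypes lie highest.

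Isotypes spanned a wide range of bound shares, on few genes each and with overlapping intervals. Threonine genes had the highest share of any isotype with at least 8 genes, 10 of 19 (52.6%, interval 28.9 to 75.6), followed by alanine with 10 of 20 (50%, 27.2 to 72.8) and lysine with 9 of 21 (42.9%, 21.8 to 66.0). The leading threonine genes were F52C9.t1 (signal 192), W09G10.t3 (165) and C52E12.t2 (147), the summit of the last lying 188 bp from it and 21 bp from the alanine gene C52E12.t3. With every summit assigned to the 1 closest tRNA gene, a setting added after values were seen, alanine led with 10 of 20 (50%), followed by arginine with 5 of 12 (41.7%) and threonine with 7 of 19 (36.8%, interval 16.3 to 61.6). Lysine then had 7 of 21 (33.3%), so the order at the top depends on summits shared by neighbours. At the other end stood histidine with 1 of 11 bound (9.09%, 0.23 to 41.3) and tyrosine with 0 of 10 (interval 0 to 30.8, while the simpler limit of 3 counts gives 30%). Most isotypes lay between these, among them glycine with 6 of 18 (33.3%), serine with 5 of 18 (27.8%), proline with 5 of 20 (25%) and leucine with 4 of 19 (21.1%). Of 4 cysteine genes 3 were bound, and the single selenocysteine gene, K11H12.t1, was not. On X, threonine had 8 of 14 bound (57.1%), alanine 9 of 13 (69.2%), histidine 1 of 9 (11.1%) and tyrosine 2 of 8 (25%).

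**Figure D4:**
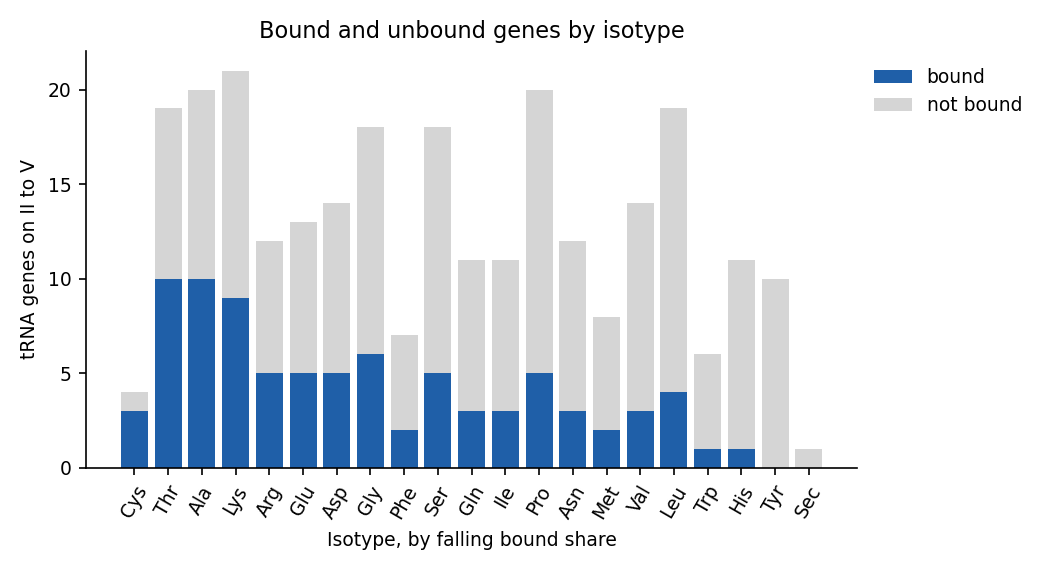
Number of tRNA genes on II to V by isotype, split into bound (blue) and not bound (grey) and ordered by falling bound share; the 1 gene with no isotype given is left out. Threonine and alanine have 10 bound genes each, tyrosine has none of 10 and histidine 1 of 11.

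All 10 tyrosine genes have an intron, a short stretch that is spliced out of the transcript. Of the 16 genes with an intron 1 was bound (6.25%, interval 0.158 to 30.2), against 84 of 254 without one (33.1%, 27.3 to 39.2). The others with an intron are 4 leucine and 2 isoleucine genes. Candidates in both replicates were found at 10 of the 16 (62.5%) and at 167 of the 254 (65.7%). Bound F57F5.t1, an isoleucine gene, had a signal of 66.9 in replicate 1 and 62.6 in replicate 2, and 135 in the reproducible list. The tyrosine genes nearest to the threshold were C06B8.t2 (89.6 in the combined list), ZK1067.t1 (83.1) and C16D9.t4 (73.7). ZK1067.t1 had 38.9 in replicate 1 and 43.9 in replicate 2. On X, 4 of 12 genes with an intron were bound (33.3%, 9.92 to 65.1). The pair below shows a bound and an unbound gene with an intron, with both boxes in capitals.
F57F5.t1, bound, chrV:12002176-12002260, plus strand: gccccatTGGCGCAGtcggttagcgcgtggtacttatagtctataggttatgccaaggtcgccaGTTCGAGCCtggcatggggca
ZK1067.t1, not bound, chrII:9211804-9211887, minus strand: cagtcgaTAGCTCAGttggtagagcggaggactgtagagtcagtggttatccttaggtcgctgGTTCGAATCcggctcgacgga
Their boxes start at bases 8 and 65 in F57F5.t1 and at bases 8 and 64 in ZK1067.t1, so both genes hold the internal promoter letters.

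Among the histidine genes, 5 had no candidate in either replicate. The pair Y40H7A.t1 and Y40H7A.t2 on IV, which face opposite strands 238 bp apart, was among them. Counted from the 5' end, Y40H7A.t1 differs from Y40H7A.t2 at 1 of 72 bases, C55A, which falls in the B box. Y40H7A.t2 keeps the B box letters and was equally without a candidate.
Y40H7A.t1, chrIV:15187344-15187415, plus strand: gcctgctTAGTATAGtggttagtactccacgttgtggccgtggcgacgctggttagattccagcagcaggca
Y40H7A.t2, chrIV:15187654-15187725, minus strand: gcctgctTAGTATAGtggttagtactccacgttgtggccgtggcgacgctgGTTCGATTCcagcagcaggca

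Genes that code for the same tRNA with the same letters were often split between bound and unbound. The 270 genes hold 123 distinct sequences, and 37 of these occur at least 2 times on II to V, in 184 genes. Of these 37 families 29 were mixed, with 63 of 162 genes bound, 7 had no bound gene and 1 had all its genes bound. Over all genes with an identical copy in the nuclear genome 71 of 197 were bound (36.0%). At such a share many families of several copies would be mixed by counting alone. Some copies also count as bound through a summit closer to another gene. Among them is Y22D7AL.t4, the only bound copy of its glutamate family. The alanine family of Y7A9D.t2 had 6 of 8 bound, and a lysine family had 6 of 10. An asparagine family had 3 of 12 bound, and a glutamine family had 0 of 6. The glutamine family was not without signal. The combined list gave 99.2 at Y49E10.t1, 81.6 at F08G5.t2, 76.4 at C13B4.t1, 68.7 at C10G8.t1 and 34.1 at R09E10.t1, and C06E4.t1 had a candidate in replicate 2 only. Reads inside identical copies cannot be placed by sequence alone, and how such reads were handled is not given in the sources used here.

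**Figure D5:**
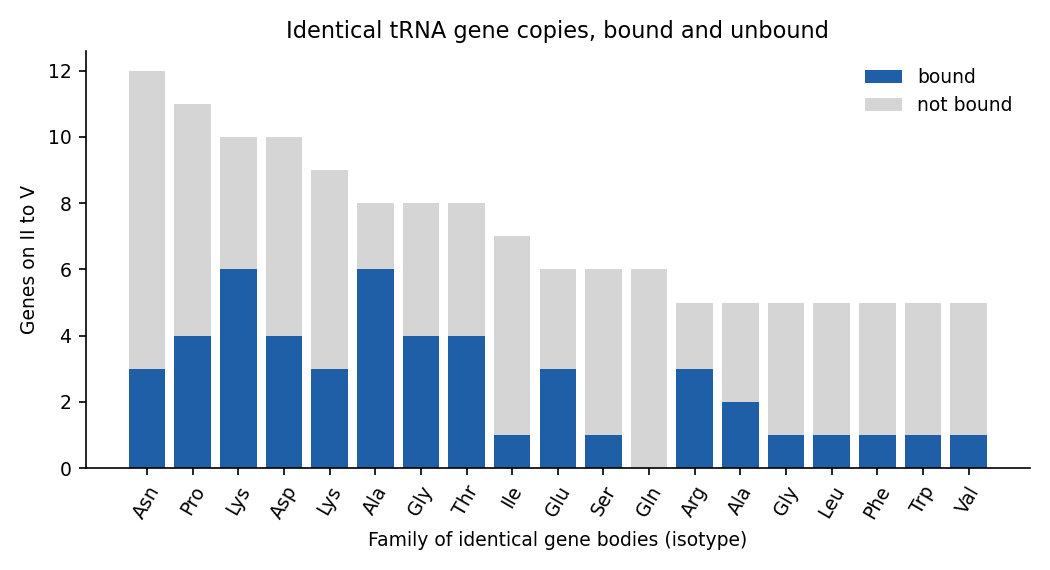
Each bar is a family of tRNA genes on II to V with identical bodies, labelled by isotype, for the families with at least 5 such genes; height is the number of genes, bound in blue and not bound in grey. All families except glutamine hold both bound and unbound copies.

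The amber suppressor genes show the split. Mutant forms of sup-5, sup-24 and sup-29, classical tools of worm genetics, are tryptophan tRNAs that read a stop codon. These 3 genes, rtw-6 and Y4C6B.t2 have the same body. Only sup-5, in the gene fli-1 on III, was bound, with a signal of 126, of 43.4 in replicate 1 and of 78.1 in replicate 2. The combined list gave 82.1 at sup-24 and 63.9 at rtw-6. Y4C6B.t2 had a candidate in replicate 1 only, with 43.2, and sup-29 had none.

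A threonine family had 4 of 8 copies bound, and its members differ only outside the gene. At 2 of the 4, C16C8.t2 and W10G11.t2, the summit lay inside a neighbouring lysine gene, 131 bp and 129 bp from the threonine gene, so only 2 of the 8 copies were the closest gene to a summit. The body they share is shown first, followed by the 50 bases upstream of each copy, where TFIIIB is known to sit.
Shared body, as in W02G9.t1, chrV:2664667-2664738, minus strand: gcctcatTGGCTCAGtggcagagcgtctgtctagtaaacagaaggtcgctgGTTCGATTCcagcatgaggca
C16C8.t2, upstream, bound, chrII:3439291-3439340, minus strand: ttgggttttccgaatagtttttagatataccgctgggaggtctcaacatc
W10G11.t2, upstream, bound, chrII:3567682-3567731, minus strand: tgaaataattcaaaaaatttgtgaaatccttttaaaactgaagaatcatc
W02G9.t1, upstream, bound, chrV:2664739-2664788, minus strand: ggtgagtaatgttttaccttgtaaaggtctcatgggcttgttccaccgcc
F11H8.t1, upstream, bound, chrIII:7030629-7030678, minus strand: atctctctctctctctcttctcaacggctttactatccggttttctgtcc
Y39A1A.t1, upstream, not bound, chrIII:10624814-10624863, minus strand: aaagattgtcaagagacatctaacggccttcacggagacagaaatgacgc
W02G9.t2, upstream, not bound, chrV:2673960-2674009, plus strand: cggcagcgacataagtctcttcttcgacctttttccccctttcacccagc
ZK994.t3, upstream, not bound, chrV:8496176-8496225, minus strand: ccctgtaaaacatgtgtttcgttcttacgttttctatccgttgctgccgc
F36D4.t2, upstream, not bound, chrV:9407112-9407161, minus strand: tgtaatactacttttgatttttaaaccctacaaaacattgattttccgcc
Where a threonine copy was the closest gene to the summit, the replicate signals were 45.7 and 79.4 at W02G9.t1 and 57.8 and 60.9 at F11H8.t1, replicate 1 first. The peaks over the lysine neighbours had 63.8 and 86.1 beside C16C8.t2 and 76.0 and 61.5 beside W10G11.t2, in the same order. Among the unbound copies, Y39A1A.t1 had 43.3 and 53.3, and ZK994.t3 had 15.3 and 29.6. W02G9.t2 with 45.8 and F36D4.t2 with 30.3 had a candidate in replicate 1 only. In replicate 1, W02G9.t2 was thus level with bound W02G9.t1. The share of A and T upstream was 52% to 78% in bound copies and 46% to 70% in unbound ones, ranges that overlap.

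Genes with repeated bodies had a higher bound share than unique ones, with intervals that overlap. Of 197 genes with an identical copy elsewhere in the nuclear genome 71 were bound (36.0%, interval 29.3 to 43.2), against 14 of 73 unique genes (19.2%, 10.9 to 30.1). Without introns the shares were 71 of 193 (36.8%) against 13 of 61 (21.3%). On X, 7 of 55 unique genes were bound (12.7%, 5.27 to 24.5). The part that read placement plays in this was not tested.

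A gene counted as clustered when another nuclear tRNA gene lay at most 1000 bp away. Of 79 clustered genes 34 were bound (43.0%, interval 31.9 to 54.7), and of 191 lone genes 51 were (26.7%, 20.6 to 33.6). With every summit assigned to the 1 closest tRNA gene, the shares were 29.1% against 26.7%, so the gap was small once no summit was shared by neighbours. With the summit required inside the gene the order turned, 11.4% against 14.7%. A cluster gap of 500 bp gave 44.4% against 28.2%, and one of 5000 bp gave 33.6% against 29.9%. The order also differed by chromosome. Clustered genes led on II (10 of 23, against 9 of 34 lone), on III (13 of 23, against 10 of 41) and on IV (9 of 19, against 16 of 52), and trailed on V (2 of 14, against 16 of 64). On X the order was likewise the other way, with 35 of 135 clustered genes bound (25.9%) and 62 of 141 lone genes (44%).

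The 37 clusters are small, 33 of them pairs, and 20 held a bound gene. In 10 clusters all genes were bound and in 10 only some. Clusters whose genes are of several isotypes had 23 of 33 genes bound, under 15 peaks (69.7%, interval 51.3 to 84.4). Clusters of a single isotype had 11 of 46 genes bound, under 8 peaks (23.9%, 12.6 to 38.8). This split was made after values had been seen. Of the 14 clusters with several isotypes 12 held a bound gene, and of the 23 with a single one 8 did. On X the same split gave 9 of 36 genes in mixed clusters (25%, 12.1 to 42.2) and 26 of 99 in single-isotype clusters (26.3%, 17.9 to 36.1). The gap seen on II to V was thus absent from these X shares, and the difference between the chromosomes was not tested.

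Threonine and lysine genes sat side by side on II at 3 loci, and at each both genes were bound under a shared peak. These pairs were C16C8.t2 with C16C8.t1 (signal 145), W09G10.t3 with W09G10.t2 (165) and W10G11.t2 with W10G11.t1 (135). The summit was closest to the lysine gene in the first and last of them and to the threonine gene at W09G10. On V a further such pair, the lysine gene ZK994.t1 and the threonine gene ZK994.t3, had neither gene bound, with 39.8 and 47.8 in the combined list. The largest cluster, Y65A5A.t1 to Y65A5A.t4 on IV, has 2 alanine genes, a valine and a histidine gene, all on the plus strand. The alanine genes had 160 and 164 and the histidine gene 151, each under its own peak. The valine gene Y65A5A.t3 between them was not bound, with 59.2 in the combined list, 30.8 in replicate 1 and 31.5 in replicate 2. That histidine gene, Y65A5A.t4, was the only bound one of its isotype on II to V.

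The 17 clusters without a bound gene were all pairs. Their candidates were uneven in strength. The combined list gave 95.3 at the proline pair T22F3.t4 and T22F3.t1, 93.0 at the aspartate gene Y105C5B.t1 and 86.3 at the glycine gene B0244.t3. The proline pairs ZK970.t4 with ZK970.t1 (71.0), ZK970.t3 with ZK970.t2 (76.8) and T22F3.t3 with T22F3.t2 (73.9) were lower. C06B8.t1 (56.1) was paired with the tyrosine gene above. The glutamate genes M01E10.t1 (61.5) and M01E10.t2 (66.5), Y105C5B.t4 (56.4) and the valine genes T28D6.t1 (47.7) and T28D6.t2 (54.4) followed. So did M03A1.t1 (50.9), ZK994.t3 (47.8), T05A8.t1 (44), F57G8.t2 (40.9), ZK994.t1 (39.8), F57G8.t1 (33.4) and B0491.t2 (30.2). M03A1.t2, T05A8.t2, F57G8.t3, F57G8.t4, B0491.t1, B0244.t1 and the histidine pair had no candidate in the combined list.

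The strongest shared peak lay between T23F1.t1 and T23F1.t2 on V, a lysine and a proline gene whose 3' ends face each other across 66 bp. The peak had a signal of 196, with 88.4 in replicate 1 and 114 in replicate 2. The locus is shown whole on the plus strand to place the summit, with both gene bodies in capitals, T23F1.t2 being read on the other strand. The summit, base 101 of the stretch, is in the lower-case bases between the genes.
T23F1.t1 and T23F1.t2, chrV:15465086-15465296, plus strand: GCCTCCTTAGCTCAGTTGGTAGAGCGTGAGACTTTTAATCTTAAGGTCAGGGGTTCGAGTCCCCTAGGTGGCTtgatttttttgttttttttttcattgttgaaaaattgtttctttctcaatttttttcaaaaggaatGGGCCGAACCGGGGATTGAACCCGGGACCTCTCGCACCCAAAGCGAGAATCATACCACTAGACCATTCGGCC

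Of the 270 genes 155 lay wholly within a protein-coding gene, 149 of them in an intron and 6 in a UTR exon, in 129 host genes. Hosted genes were bound in 45 cases (29.0%, interval 22.0 to 36.9), against 40 of 115 genes outside (34.8%, 26.1 to 44.2). Inside a host, 23 of 92 genes on the host's strand were bound (25%, 16.6 to 35.1) and 22 of 63 on the opposite strand (34.9%, 23.3 to 48.0). These intervals overlap. Among genes with a unique body, 5 of 46 hosted genes were bound (10.9%, 3.62 to 23.6) and 9 of 27 outside (33.3%, 16.5 to 54), with intervals that also overlap. Among genes at most 1000 bp from the 5' end of a protein-coding gene, 38 of 97 genes were bound (39.2%, 29.4 to 49.6), against 47 of 173 farther away (27.2%, 20.7 to 34.4).

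Of the 129 hosts 22 held several tRNA genes. In 13 of these no gene was bound, in 6 some were and in 3 all were. All 3 genes in brd-1, the worm counterpart of human BARD1, a partner of BRCA1, were bound. K04C2.t2 and K04C2.t1 share a peak of 149 and K04C2.t3 has one of 131. Both genes in rsa-2 (128) and both in unc-104, a kinesin gene for synaptic vesicle transport (147), were bound under shared peaks. In nimk-1 the clustered F49C5.t4 and F49C5.t3 shared a peak of 156, and the lone F49C5.t1 was not bound, with 46.5 in the combined list. In srv-16 the glutamate pair Y105C5B.t3 and Y105C5B.t2 shared a peak of 123, and Y105C5B.t1 was not bound, with 93.0 in the combined list. None of the 3 genes in pxn-1, which codes for a peroxidasin, was bound, and the combined list gave 89.6, 47.8 and 39.8 there.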

How the data were processed

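The authors deposited 4 region lists in assembly ce11: candidate regions for each replicate and for both combined, called against a control, and a reproducible list made from them by the irreproducible discovery rate, per the notes deposited with the lists. The signal value of a region is a score without a unit, as the authors deposited it. Not given in the sources used here: which aligner and peak caller were used, at what threshold, and how reads that map to several places were treated. The lists hold no read counts, so depth is unknown and a gene without a peak was not called rather than shown to be free of the protein. Control reads were not analysed here.

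Chromosomes of ce11 and WBcel235 agree in length. Genes came from Ensembl release 115, isotypes from RefSeq, sequences from the WBcel235 genome. Summits were taken from the deposited offset, and mitochondrial regions were left out of ranks. Distances, shares, exact (Clopper-Pearson) intervals at 95% and motif matches were computed in python 3.11.15 with pandas 2.3.3 and scipy 1.17.1. The counting was tested on simulated peaks with known answers. Named genes are the 4 strongest bound per chromosome, the 4 nearest the threshold on each side, the 4 with the largest ratio of replicate ranks, the largest clusters with and without a bound gene, and the leaders of the isotypes with the highest and lowest share. Other genes were named as examples after their values were seen. The genes and classes were chosen with earlier results of these data known. The values of 1 unbound cluster are not reported here.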

Additional observations from a re-analysis of the deposited data

How the results depend on the processing

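The bound share of all genes, 31.5%, was 13.7% with the summit inside the gene, 14.8% with the peaks at or above the median signal and 19.2% among unique bodies. Under the same settings the clustered share (43.0%) was 11.4%, 25.3% and 25%, and 29.1% when a summit went only to its nearest tRNA gene. The lone share (26.7%) was 14.7%, 10.5% and 18.0%, and the hosted share (29.0%) 12.9%, 11.0% and 10.9%. The share outside hosts (34.8%) was 14.8% inside the gene and 20% with the stronger peaks, and 33.3% among unique bodies. These settings count fewer summits or fewer genes by design, and no cause of the moves was tested. With the strongest candidates of 1 replicate in place of the reproducible list, the range was 24.1% to 27.0% for all genes, 38.0% to 41.8% clustered, 18.3% to 20.9% lone, 20.6% to 24.5% hosted and 28.7% to 30.4% outside hosts, and the median summit was 8 to 16 bp into the gene. Candidates in both replicates (65.6%) covered 57% of genes within 100 bp, 73.3% within 500 bp and 57% with only candidates at or above each list's median signal. The median summit (14 bp) was 38 bp among summits inside the gene, -3 bp at unique bodies and 23.5 bp from the closest gene body. With cluster gaps of 500 and 5000 bp the clustered share was 44.4% and 33.6%, and the lone share 28.2% and 29.9%. The clustered and lone shares were thus closer together at 5000 bp than in the main setting. Windows of 100 and 500 bp and these gaps left the bound shares within their intervals. Overlap of the peak with the gene also did, with 31.1% of all genes bound. These peaks are 376 bp wide with the summit at the centre, so that setting nearly repeats the main summit rule. RefSeq gene models gave the same shares, but all 270 genes have identical coordinates there. Neither of these last settings is therefore a separate check. No paired analysis was possible because there is a single group. Depth is unknown, and 2 biological replicates of 1 strain limit what the shares say about other worms.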
